A study of Mus musculus with 8 samples.

Results

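The cytosolic ribosomal protein genes of the mouse were followed in the frontal cortex of WT and HAR123-KO mice. Genes were taken by symbol as protein-coding Rpl and Rps genes, the stalk genes Rplp0 to Rplp2 and Rpsa, without the Rps6k kinase genes. Of the 55536 genes in the count table, 83 had such a symbol and 78 of these had at least 80 raw counts over the 8 libraries. These 78 genes comprised 47 genes of the large (60S) subunit and 31 of the small (40S) subunit. The gene just above the count minimum was Rps27l, with 147 counts over all libraries, and the gene just below it was Rps10, with 46. All 78 genes received an adjusted p in the test over the whole table, so none was lost to a filter on low values.

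Total RNA of the frontal cortex of 8-week-old mice was sequenced after ribosomal RNA depletion, with 4 libraries per genotype. In HAR123-KO mice the enhancer HAR123, which lies in a Smg6 intron and evolved rapidly in humans, has been deleted. The deletion was made with CRISPR-Cas9 in C57BL/6J zygotes, the line was backcrossed to C57BL/6J, and the WT mice were littermates. The mice had no further treatment in the labels, which name neither the sex nor the founder line of each animal, nor whether each library came from a single mouse. If libraries shared animals, the p-values below would count them as separate mice and leave out part of the spread between animals.

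Each ribosome carries a single copy of nearly every one of these proteins, bound to ribosomal RNA, and cells make them in matched amounts. Their mRNAs are short and abundant, and most begin with a C followed by a run of pyrimidines, the 5′ terminal oligopyrimidine (TOP) motif, through which mTOR signalling and the protein LARP1 control their translation and stability. In neurons ribosomal protein mRNAs are also carried into axons and dendrites. In humans, loss of a single copy of many of these genes causes Diamond-Blackfan anaemia.

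Libraries held 13528251 to 17051001 counts in total. Of these, 2786320 to 3732172 fell on nuclear protein-coding genes, taken without Lars2 because ribosomal reads align to it, and 21224 to 28846 fell on the 78 genes. Gm42418, which overlaps ribosomal RNA sequence, took 57.5% ± 0.548 of WT and 55.9% ± 1.03 of HAR123-KO libraries (SD, n = 4). Mitochondrial ribosomal RNA took 9.45% ± 0.203 of WT and 10.6% ± 0.398 of HAR123-KO libraries, without overlap. Of 8 markers of cortical projection neurons, all 8 were detected, from Fezf2 with 71.2 ± 5.77 to Camk2a with 11100 ± 165 normalized counts in WT (SD, n = 4).

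The start sites of the 3 genes that passed the test, with that of a gene that did not, are shown because a pyrimidine run at the start is the feature these mRNAs are known for. RefSeq promoter sequences of GRCm38.p6 were found for 58 of the 78 genes. Each line gives the strand's own sequence 5′ to 3′, from 10 bases before the annotated start to 20 bases from it, so that the 11th letter is the first transcribed base. Capitals mark the longest run of C and T in the window of 30 bases. The windows lie at chr4:86857348-86857377 on the minus strand (Rps6), chr3:90213629-90213658 on the minus strand (Rps27), chr9:120127756-120127785 on the plus strand (Rpsa) and chr7:141447641-141447670 on the plus strand (Rplp2).
Rps6: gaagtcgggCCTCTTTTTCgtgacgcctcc
Rps27: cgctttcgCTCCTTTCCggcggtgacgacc
Rpsa: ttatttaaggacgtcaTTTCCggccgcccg
Rplp2: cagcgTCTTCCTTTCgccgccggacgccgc

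In Rps6 the annotated start was a C inside a run of 10 pyrimidines, and in Rps27 inside a run of 9. In Rplp2 the run of 10 also crossed the start. The annotated start of Rpsa was not a pyrimidine, and the longest run in its window had 5 bases. A C at the start followed by pyrimidines, at least 5 in all, was found in 11 of the 58 genes (19%) and in 2.2% of the 16522 protein-coding promoters compared, members included. The median log2 fold change was 0.12 over these 11 genes and 0.08 over the other 47. RefSeq starts lay within 100 bases of the GENCODE start in 47 of the 58 genes, at 45, 3 and 78 bases for Rps6, Rps27 and Rpsa and at 281 for Rplp2, so a run at another start is missed by this measure. Over the promoters of 300 bases, the ETS family letters CCGGAAG stood on either strand in 22 of 58 genes (37.9%, against 12.3% of all promoters) and the YY1 letters AAGATGGC in 5 (8.62%, against 3.33%). The ETS letters end in the AAG with which the YY1 letters begin, so the motifs can overlap. The ETS letters occurred in Rps6, Rpsa and Rplp2, and the YY1 letters in Rps27.

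Levels were compared between genes as TPM, that is counts per kilobase scaled to a common total over the nuclear protein-coding genes of each library. Per kilobase of the gene's exons, the WT level ranged from 28.2 to 1840 TPM, with a median of 257. Rplp1, a protein of the stalk that recruits elongation factors, was highest at 1840 ± 46.2 (SD, n = 4), and Rps15, which sits near the decoding site, was next at 1300 ± 51.9. The gap between them exceeded the spread of both. Rps29, a zinc-binding protein of the 40S head, followed at 796 ± 27.1, Rpl38 at 759 ± 55.1 and Rpl23a, beside the exit tunnel, at 728 ± 50.9. Rpl38 differed from each of these neighbours by less than its own SD. The lowest values belonged to Rpl13a (28.2 ± 3.64), which a gene on the same strand overlaps over 59.3% of its reference mRNA and whose value is not read as expression, and to Rps27l (31.2 ± 2.54), Rpl22l1 (39.8 ± 4.80), Rpl7l1 (42.9 ± 5.59) and Rps15a (56.1 ± 8.27). Of these, Rps27l, Rpl22l1 and Rpl7l1 are paralogs of other ribosomal proteins.

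Exon length and the length of the mature mRNA differ widely for some of these genes, since the exon length joins the exons of all annotated isoforms. Per kilobase of 1 reference mRNA per gene, the WT median was 370 and the range 31.3 to 1130 TPM. Rplp1 and Rps15 again led, with 1130 ± 28.2 and 1010 ± 40.3. Rpl41, the shortest of the ribosomal proteins and chosen here after its values were seen, came next with 958 ± 8.66. Copies among annotated transcripts, defined below, covered 99.4% of the Rplp1 and 88.0% of the Rps15 reference mRNA. The WT median was 407 TPM over the 60 genes with 50% or more copied and 244 over the 18 others. The part of copies in these levels was not tested. Rps27l, the overlapped Rpl13a and Rpl7l1 had the lowest values, between 31.3 and 35.3. In HAR123-KO the same 5 genes (Rplp1, Rps15, Rpl41, Rps29 and Rps27) led in the same order, and the lowest values were 33.0 for Rpl7l1 and 33.5 for Rpl13a, with the same limit.

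**Figure D1:**
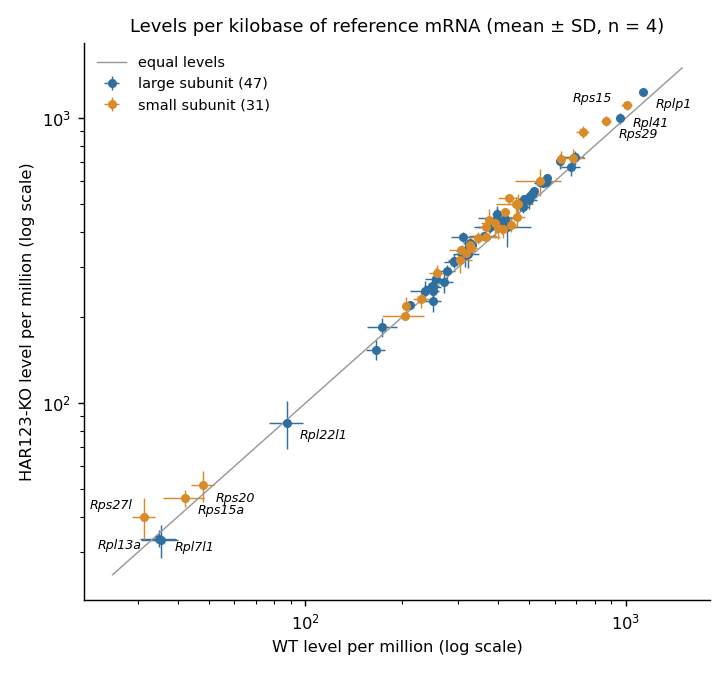
Mean level per kilobase of reference mRNA in WT (x axis) and HAR123-KO (y axis), in TPM over nuclear protein-coding genes, both on log scales, for the 47 large-subunit and 31 small-subunit genes. Bars are the SD over 4 libraries, and the grey line marks equal levels. Rplp1 lies highest, at 1130 in WT and 1240 in HAR123-KO, and the 3 lowest in WT, Rps27l, Rpl7l1 and Rpl13a (which a same-strand gene overlaps), lie between 31.3 and 35.3.

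The ribosomal protein genes together took a larger share of the counts in HAR123-KO. Their share of nuclear protein-coding counts was 0.762%, 0.761%, 0.748% and 0.777% in the 4 WT libraries. It was 0.815%, 0.825%, 0.806% and 0.817% in the 4 HAR123-KO libraries. The genotypes did not overlap, and the mean went from 0.762% ± 0.0116 to 0.816% ± 0.00793 (SD, n = 4), a ratio of 1.07. Of the 78 genes, 22, 16, 15 and 33 lay above their own mean over all libraries in the 4 WT libraries, against 53, 60, 51 and 53 in the 4 HAR123-KO libraries. WT replicate 4 was therefore the WT library closest to the HAR123-KO libraries. The share of the 78 mitochondrial ribosomal protein genes was 0.157% ± 0.00255 in WT, against 0.156% ± 0.00148 for HAR123-KO (SD, n = 4), and there the genotypes overlapped. With all counts of the library as denominator, ribosomal RNA included, the ratio for the cytosolic genes was 1.1. Of the ribosomal RNA contents given above, mitochondrial ribosomal RNA was higher in HAR123-KO without overlap and Gm42418 was lower on average with overlap, and their part in the share was not tested. In bulk tissue, more cells with many of these mRNAs and more of these mRNAs per cell cannot be told apart.

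**Figure D2:**
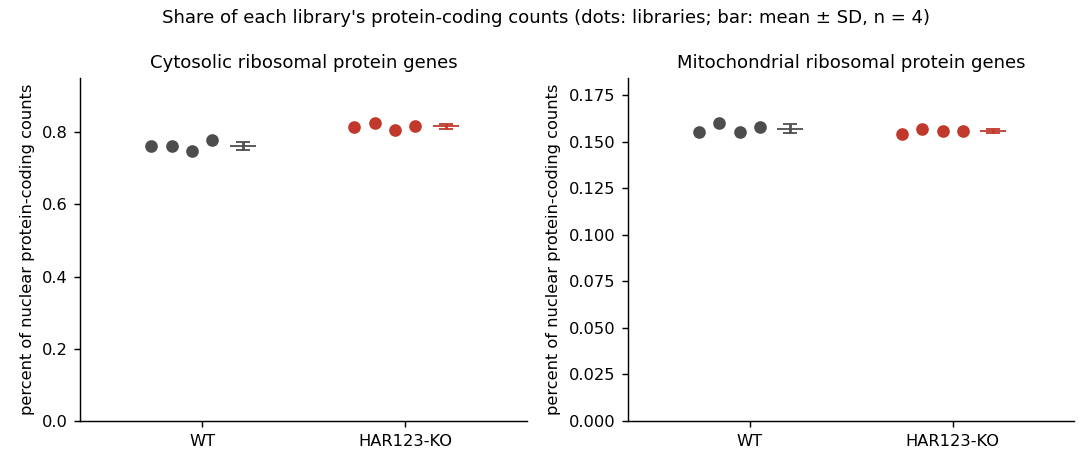
Percent of nuclear protein-coding counts on the 78 cytosolic (left) and the 78 mitochondrial (right) ribosomal protein genes. Dots are libraries, and bars are the mean ± SD of 4 libraries. The cytosolic share was 0.748% to 0.777% in WT and 0.806% to 0.825% in HAR123-KO, without overlap, and the mitochondrial share overlapped between genotypes.

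Both subunits took part in this difference. Per kilobase of exon, the summed level of the large-subunit genes was 1.61 ± 0.0429 times that of the small-subunit genes in WT and 1.57 ± 0.0399 times in HAR123-KO (SD, n = 4). The libraries ran from 1.56 to 1.64 and from 1.52 to 1.61, so the genotypes overlapped and a shift between the subunits was not detectable over this spread.

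Gene by gene the differences were small and mostly of 1 direction. No gene reached the limits the study used for this tissue, an adjusted p under 0.05 with an absolute log2 fold change over 0.5, by the Wald test of DESeq2, by the quasi-likelihood test of edgeR or by limma-voom. Over all 12758 genes tested, 0.227% were past these limits and higher in HAR123-KO. With no minimum fold change, 3 of 78 genes (3.85%) had an adjusted p under 0.05 and all 3 were higher (Rps6, Rps27 and Rpsa). Over all genes tested, 0.972% were called higher in this way and 0.713% lower. An unadjusted p under 0.05 was found for 17 genes (21.8%), all higher, against 4.51% of all genes higher and 4.27% lower.

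All 4 HAR123-KO libraries lay above all 4 WT libraries for 19 of the 78 genes (24.4%), and below them for 0. Over all genes tested, 4.02% separated upward and 3.65% downward. The count of 19 became 13 after removing shifts with mRNA length, 14 with exon length and 28 with library totals as size factors. The log2 fold change was above 0 for 66 genes (84.6%, against 49.4% of all genes tested) and below 0 for 12. The median log2 fold change was 0.10, or 6.91% more in HAR123-KO, with quartiles of 0.0595 and 0.143. The median over all genes tested was -0.00, with quartiles of -0.0903 and 0.0811. The largest and smallest values among the ribosomal protein genes were 0.36 and -0.12. For 77 of the 78 genes the 95% interval of the fold change stayed within ±0.5 on the log2 scale, so a change of the size required by the study's limit was outside the interval of every gene but Rps27l.

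The median was positive under every alternative that gives one, between 0.080 and 0.135. The highest value came with library totals as size factors. The lowest came after removing each library's shift with mRNA length, and the count of positive genes was then 63. The ribosomal protein mRNAs are short, with a median reference length of 768 bases against 3120 for protein-coding genes tested. The 606 tested protein-coding genes with a reference mRNA under 1000 bases, which include most of the ribosomal protein genes, had a median log2 fold change of 0.01. Of 20 groups of genes by mRNA length, the shortest (56 to 779 bases) had the largest shift, 0.027 on the log2 scale. By exon length the shortest group (56 to 1168 bases) had 0.0445. Both groups include ribosomal protein genes.

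**Figure D3:**
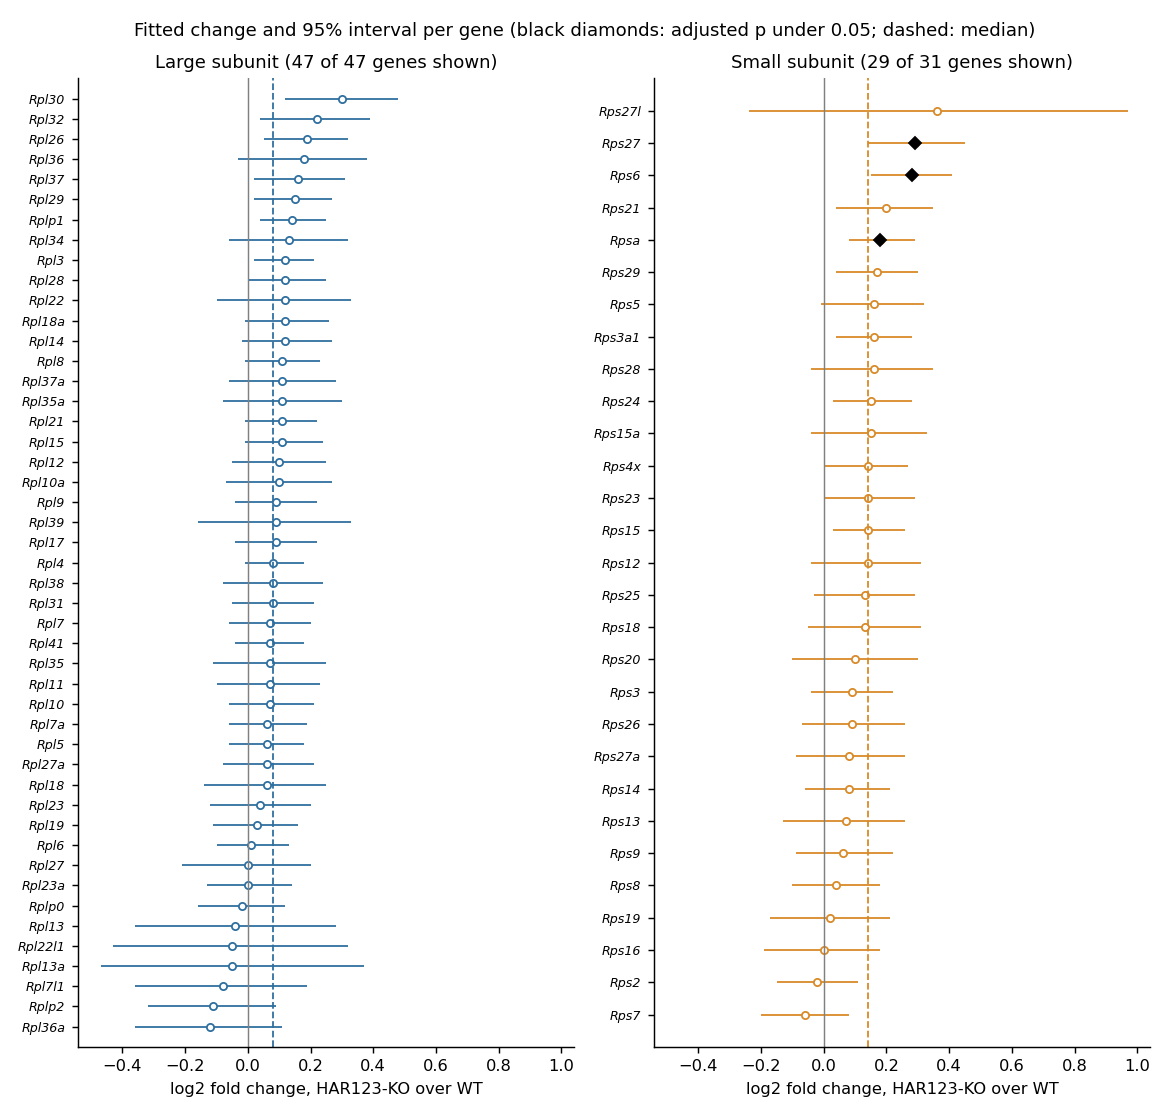
Fitted log2 fold change (HAR123-KO over WT) of each of the 47 large-subunit (left) and of 29 of the 31 small-subunit (right) genes, with its 95% interval as a line. Black diamonds mark an adjusted p under 0.05 by DESeq2 and the dashed line marks the median of all 47 or 31 genes, 0.08 on the left and 0.14 on the right. Most points lie above 0, and only Rps6, Rps27 and Rpsa carry a diamond.

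Of the 3 genes that rose, Rps6 had the smallest p. It encodes the small-subunit protein that S6 kinases phosphorylate downstream of mTOR, a standard readout of that pathway in neurons. The WT libraries held 360.3, 398.4, 359.3 and 417.2 normalized counts of Rps6, and the HAR123-KO libraries 475.1, 447.9, 452.5 and 487.1. Every HAR123-KO library was above every WT library, by a log2 fold change of 0.28 ± 0.07 (SE; adjusted p = 0.00246 by DESeq2). When single libraries were left out in turn, Rps6 lost its call in the fit that omitted WT replicate 1 (adjusted p = 0.0618) and kept it in the other 7 fits. With the replicate number as a block, Rps6, Rps27 and Rpsa all lost their calls.

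Rps27 encodes a zinc finger protein of the small subunit and is one of the Diamond-Blackfan genes. Its normalized counts were 258.9, 271.8, 250.8 and 245.0 in WT, against 290.8, 320.4, 327.5 and 316.9 in HAR123-KO. The genotypes did not overlap, with a log2 fold change of 0.29 ± 0.08 (adjusted p = 0.0142 by DESeq2). The call was lost without WT replicate 1 (adjusted p = 0.0721), WT replicate 3 (0.0698), WT replicate 4 (0.0821), HAR123-KO replicate 2 (0.0993) or HAR123-KO replicate 3 (0.136), and after removing shifts with exon length (log2 fold change 0.25, adjusted p = 0.0655). It was kept after removing shifts with mRNA length (0.26, adjusted p = 0.0365) or GC content (0.29, adjusted p = 0.0146).

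Rpsa encodes the small-subunit protein at the mRNA exit, which has also been described as a laminin receptor. Its normalized counts were 567.4, 585.8, 592.3 and 630.1 in WT, against 680.9, 654.2, 650.6 and 714.7 in HAR123-KO. The lowest HAR123-KO library was above the highest WT library, with a log2 fold change of 0.18 ± 0.05 (adjusted p = 0.0402 by DESeq2). This call stood closest to the threshold. It was kept without WT replicate 4 and lost without each of the others (adjusted p = 0.348, 0.240 and 0.109 without WT replicates 1, 2 and 3, and 0.150, 0.0840, 0.0735 and 0.189 without HAR123-KO replicates 1 to 4).

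Rpl30, a large-subunit protein that also binds selenocysteine insertion elements in mRNAs, was at 167.7, 191.5, 193.2 and 165.8 normalized counts in WT, against 229.3, 227.3, 216.6 and 212.7 in HAR123-KO. Its libraries did not overlap either, and its log2 fold change of 0.30 ± 0.09 was the largest of the large subunit. The DESeq2 adjusted p was 0.0707, so it was not called. By edgeR it was 0.0205 and by limma-voom 0.0348, and Rpl30 was the only further gene of the 78 that any of these tests called. The gene D730044K07Rik on the opposite strand covers 34.7% of its reference mRNA, and its part in these counts was not tested.

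**Figure D4:**
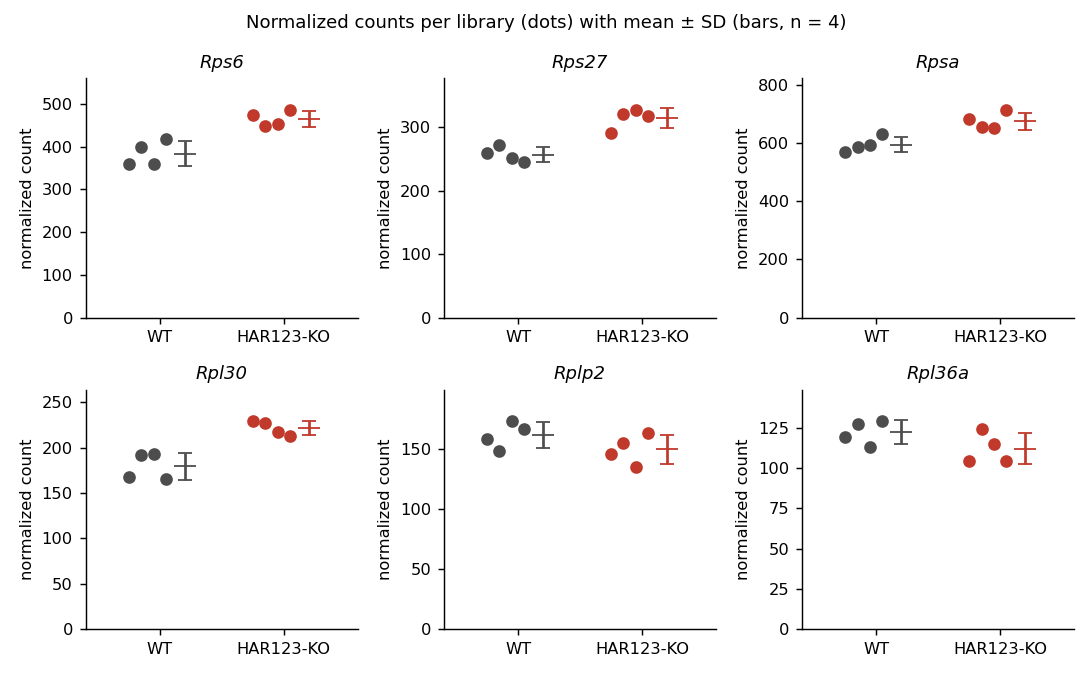
Normalized counts per library (dots) of Rps6, Rps27, Rpsa and Rpl30, whose genotypes did not overlap, and of Rplp2 and Rpl36a, which had the lowest fold changes. Bars are the mean ± SD of 4 libraries, and axes start at 0. Rps6 went from 384 ± 28.8 in WT to 466 ± 18.6 in HAR123-KO, and the libraries of Rplp2 overlapped, at 148.3 to 173.7 and 135.6 to 163.8.

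The small-subunit genes had 10 of the 17 unadjusted p-values under 0.05. Beside the 3 called genes these included Rps3a1, Rps4x, Rps15, Rps21, Rps24 and Rps29, with log2 fold changes from 0.14 to 0.20 and adjusted p-values from 0.256 to 0.555 (DESeq2). Rps3a1 ranged over 403.3 to 423.1 normalized counts in WT, against 454.5 to 481.6 in HAR123-KO. Rps21 had 243.2 to 255.7 and 269.4 to 307.2, and Rps29 had 332.1 to 359.4 and 375.6 to 407.5. In these 3 genes, as in Rps15 and in the X-linked Rps4x, the genotypes did not overlap. Rps24 had 392.3 to 442.4 and 427.9 to 502.1, which overlapped. Over all 31 small-subunit genes, 27 had a positive fold change, with a median of 0.14.

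The large-subunit genes had 7 unadjusted p-values under 0.05, those of Rpl3, Rpl26, Rpl29, Rpl30, Rpl32, Rpl37 and Rplp1. Rpl26, a protein beside the exit tunnel that also binds the p53 mRNA, was at 326.5 to 338.9 normalized counts in WT, against 351.8 to 403.4 in HAR123-KO (log2 fold change 0.19 ± 0.07, adjusted p = 0.235). Rpl3, which reaches into the peptidyl transferase centre, was the most counted of the 78 genes, with 756.6 to 794.8 in WT and 796.5 to 875.1 in HAR123-KO (0.12 ± 0.05, adjusted p = 0.326). All 7 genes separated the genotypes, as did Rpl8, Rpl9, Rpl28 and Rpl41. Over the 47 large-subunit genes, 39 had a positive fold change, and the median was 0.08. The difference between the medians of the subunits was not tested.

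By place in the ribosome, all 10 exit tunnel genes had a fitted fold change of 0.00 or more, with a median of 0.08 and a highest value of 0.19 in Rpl26, and 0 had an adjusted p under 0.05. Of the 8 genes along the mRNA path and decoding site of the 40S subunit, 7 were positive (median 0.12) and Rpsa was called. Of the 12 tested genes of the 40S head, 11 were positive (median 0.13) and 0 were called, with 3 at an unadjusted p under 0.05. The 17 tested Diamond-Blackfan genes included 15 with a positive value (median 0.11), and Rps27 was called. For these lists, which overlap each other, the median over all genes tested was -0.00.

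The 5S particle genes were also positive, while the stalk genes were mixed. Rpl5 and Rpl11, which carry 5S ribosomal RNA and can bind MDM2 to stabilise p53, had log2 fold changes of 0.06 ± 0.06 and 0.07 ± 0.08, and their libraries overlapped. In the stalk, Rplp1 was at 558.4 to 590.6 normalized counts in WT, against 604.0 to 642.8 in HAR123-KO (0.14 ± 0.05, adjusted p = 0.244). Its partner Rplp2 had 148.3 to 173.7 and 135.6 to 163.8 (-0.11 ± 0.11, adjusted p = 0.882). Rplp0, the base of the stalk and a common reference gene in quantitative PCR, had 353.5 to 405.4 and 342.0 to 408.9 (-0.02 ± 0.07, adjusted p = 0.991). Only Rplp1 of the 3 stalk genes separated the genotypes.

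The 12 genes with a negative fold change included Rpl13, Rpl13a, Rpl22l1, Rpl27, Rpl36a, Rpl7l1, Rplp0, Rplp2, Rps2, Rps7 and Rps16. The most negative was the X-linked Rpl36a, at 119.3, 127.7, 113.5 and 129.4 normalized counts in WT, against 104.4, 124.6, 115.3 and 104.2 in HAR123-KO. The genotypes overlapped, with a log2 fold change of -0.12 ± 0.12 (adjusted p = 0.902 by DESeq2). Rps7, a Diamond-Blackfan gene, followed Rplp2 and Rpl7l1 with -0.06 ± 0.07. In 0 of the 12 genes did the genotypes separate or the unadjusted p fall under 0.05.

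Several of these proteins have a second gene with a related product. Rps27l, the paralog of Rps27 and a p53 target, had the highest fitted fold change of all 78 genes but few counts. Its libraries held 14.6 to 17.5 normalized counts in WT, against 17.4 to 24.7 in HAR123-KO, and overlapped (0.36 ± 0.31, adjusted p = 0.858). Rpl22l1 had -0.05 ± 0.19 beside 0.12 ± 0.11 for Rpl22, and Rpl7l1 had -0.08 ± 0.14 beside 0.07 ± 0.07 for Rpl7. The difference within each of these pairs was not tested. The muscle paralog Rpl3l had 5 raw counts over all 8 libraries, and the paralogs Rpl10l and Rpl39l had 1 each, so they fell under the count minimum. Rps4l, annotated as a transcribed pseudogene and related to the X-linked Rps4x, was at 32.0 ± 8.93 normalized counts in WT, against 19.5 ± 4.65 for HAR123-KO (SD, n = 4), with overlapping libraries and a log2 fold change of -0.71 ± 0.27 (adjusted p = 0.252).

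Some genes with low counts had an overlapping gene in the annotation. Rpl24 and Rps10, which cells use throughout the body, had only 31 and 46 raw counts over the 8 libraries and were not among the 78. An overlapping gene on the same strand covered 71.5% of the reference mRNA of Rpl24 and 53.5% of that of Rps10. Such overlaps were also found for Rpl13a (59.3%, 292 counts) and for Rpl36al (63.1%, 9 counts), and the genes over these 4 were listed at 0 counts in all libraries. The part of the overlap in these counts was not tested, and the levels of these 4 genes are not read as expression. Rps27a and Fau, which are made as fusions to ubiquitin or a ubiquitin-like protein, had log2 fold changes of 0.08 ± 0.09 and 0.16 ± 0.09. Genes on the opposite strand covered over 25% of the reference mRNA of Rpl5, Rpl22l1, Rpl23a, Rpl30 and Rpl35. Since the strand setting at counting was not given, counts of these 5 genes may include their neighbours' reads, and the median log2 fold change over them was 0.06.

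Ribosomal protein genes have many processed copies in the genome. Among annotated transcripts, a median of 70.2% of a gene's reference mRNA had a copy elsewhere at 95% identity or more over 100 bases or more. In 10 of 12 groups of annotated genes with identical sequence, the totals lay within 10% of each other. How reads with several matches were counted was not tested. Copies covered 86.5% of Rps6, 98.8% of Rps27, 55.7% of Rpsa and 61.1% of Rpl30. The 18 genes with under 50% of their sequence copied had a median log2 fold change of 0.11, with 16 of 18 positive, 4 separating the genotypes and 0 called. The 60 others had a median of 0.09, with 50 of 60 positive and 3 called. Of 48 tested pseudogenes that carry a ribosomal protein symbol, 30 had a positive value (median 0.07). The pseudogene with an adjusted p under 0.05 was Rps6-ps4, with 262 ± 23.3 and 317 ± 17.9 normalized counts (SD, n = 4, 0.28 ± 0.08, adjusted p = 0.0281), which shares sequence with Rps6 and is not separate evidence. The pseudogenes with the highest values were Rpl17-ps8 (0.63) and Rpsa-ps2 (0.50), and the lowest value was that of Rps12-ps3 (-0.47).

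Other genes of the translation pathway were compared in the same fit. Of 21 tested genes of other TOP mRNAs and translation factors, 15 had a positive log2 fold change (median 0.03). An adjusted p under 0.05 was found in 0 by DESeq2, and an unadjusted one in 2 higher and 1 lower. The elongation factor genes Eef1a1 and Eef2 had 0.07 ± 0.03 and 0.01 ± 0.03. The extremes were Btf3 (0.22) and Fau (0.16) at the top and Eef1d (-0.22) and Vim (-0.12) at the bottom. Rack1, a scaffold protein of the 40S subunit, had 0.03 ± 0.08.

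Of the 37 ribosome biogenesis genes, 19 were positive and 18 negative (median 0.01), with 0 called and 2 at an unadjusted p under 0.05. Eif6, which keeps the 60S subunit from joining too early, had the highest value (0.36), followed by Nop10 (0.29), while Ltv1 (-0.33) and Rrp9 (-0.28) had the lowest. Of the 20 tested mTOR and S6 kinase genes, 10 were positive and 10 negative (median 0.00), with 0 at an unadjusted p under 0.05. Rps6ka5 (0.20) and Rictor (0.12) lay at the top and Akt1s1 (-0.26) and Eif4ebp2 (-0.11) at the bottom. The S6 kinase gene Rps6kb1 had 0.05 ± 0.09, and Mtor 0.09 ± 0.05.

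Of the 76 tested mitochondrial ribosomal protein genes, 33 were positive and 43 negative (median -0.02), with 0 at an unadjusted p under 0.05 and 0 separating the genotypes. Mrpl16 (0.29) and Mrpl41 (0.28) had the highest values and Mrps14 (-0.35) and Mrps16 (-0.29) the lowest. They took about 0.157% of counts in WT against 0.762% for as many cytosolic genes, and lower counts widen the error of each fold change.

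Smg6, the gene that holds the deleted element, was at 209 ± 7.78 normalized counts in WT, against 218 ± 15.4 for HAR123-KO (SD, n = 4), a log2 fold change of 0.05 ± 0.09 (adjusted p = 0.964). Its product cuts mRNAs in nonsense-mediated decay, and of 10 Upf and Smg genes 7 were positive and 3 negative (median 0.04), with 0 at an unadjusted p under 0.05. Upf3b (0.20) and Smg8 (0.16) had the highest values and Smg1 (-0.07) and Upf3a (-0.04) the lowest. The 78 ribosomal protein genes lie on 19 chromosomes, with 7 of them on chromosome 11, which also carries Smg6. The nearest, Rpl23a, lies 3.02 Mb away and had a log2 fold change of 0.00 ± 0.07. The next, Rpl26, lies 6.02 Mb away and had 0.19 ± 0.07, and the other 5 had values from -0.00 to 0.08.

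**Figure D5:**
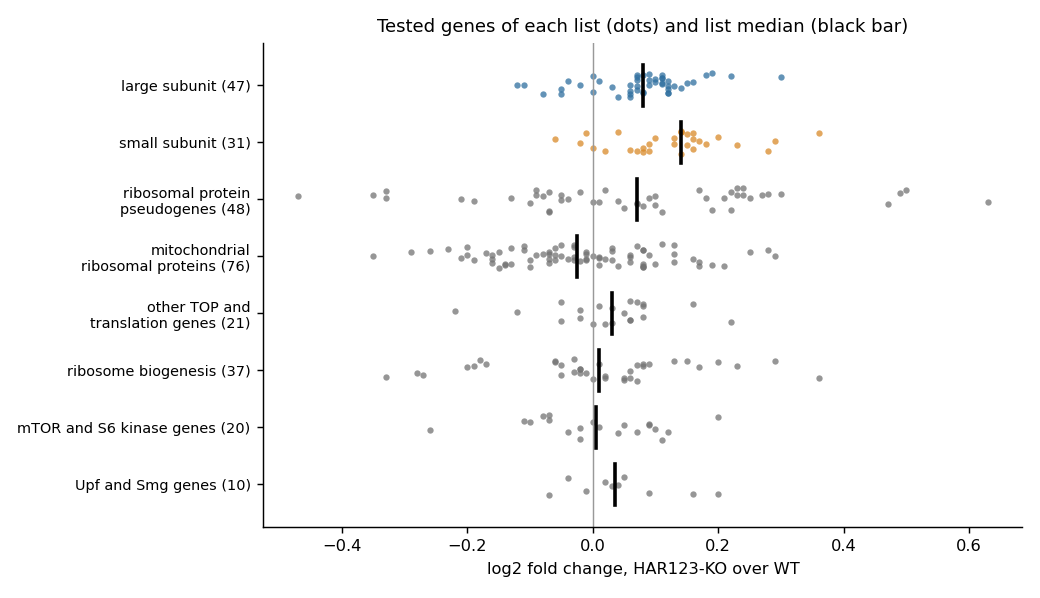
Fitted log2 fold change (HAR123-KO over WT) of every tested gene (dots, spread vertically at random) for the large- and small-subunit genes and 6 related lists, with the number of genes in parentheses. Black bars are medians, at 0.08 and 0.14 for the subunits, 0.07 for the pseudogenes, 0.03 for other TOP and translation genes and -0.02 for the mitochondrial ribosomal proteins.

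Markers of cell types also differed between the genotypes, and their part in the ribosomal protein result was not tested. All 7 striatal projection neuron markers rose (DESeq2 adjusted p under 0.05 for each), and their summed level went from 1300–1360 CPM of nuclear protein-coding counts in WT to 1730–1770 in HAR123-KO. Penk had the largest change (0.80 ± 0.05, adjusted p = 7.2e-46). Of 5 oligodendrocyte markers 3 rose, among them Mbp and Cnp, and their summed level went from 3880–4020 to 4500–4610. Of 8 cortical projection neuron markers 4 fell (Slc17a7, Nrgn, Cux2 and Camk2a), from a sum of 6430–6590 to 6000–6110. Of 5 astrocyte markers 2 fell (Gja1 and Slc1a3), while Gfap had 0.16 ± 0.08 (DESeq2 adjusted p = 0.558, unadjusted p = 0.0487). Of 5 endothelial markers 1 fell (Vwf), and of 5 microglia markers 0 were called. Choroid plexus markers were near 0 in WT, with a sum of 5.74–8.57, and reached 23.7–28.6 in HAR123-KO, where Kl was the only tested gene of the 6 (1.99 ± 0.32). The sums of the striatal, oligodendrocyte and choroid plexus markers, which were higher in HAR123-KO, and those of the cortical projection neuron, astrocyte (881–933 in WT, 795–873 in HAR123-KO) and endothelial markers (129–143, 101–119), which were lower, each separated the 8 libraries by genotype, as did the ribosomal protein share. The microglia sums were 224–244 and 216–224.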

How the data were processed

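The authors deposited 1 table of raw counts, with 55536 genes and 8 libraries. Per the labels and the study's methods, the authors aligned paired reads with STAR 2.5.2b to GRCm38 and summed exon counts per gene with featureCounts. The strand setting and the treatment of reads with several matches are not given in the sources used here. No column was left unused. The table's exon length per gene was used as deposited.

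Symbols were taken from GENCODE M21, in which all of them matched. Genotypes were compared with DESeq2 1.42.0 (R 4.3.3), the study's tool, by its Wald test, with genotype as the only term, median-of-ratios size factors and Benjamini-Hochberg adjustment. Its filter left genes under a mean of 17.55 normalized counts without an adjusted p. Intervals are 95% Wald intervals. As alternatives, the tests of edgeR 4.0.16 and limma-voom (limma 3.58.1) were run, with 4 scalings, 2 filters on low counts, offsets by exon length, the replicate number as a block, stricter limits (adjusted p under 0.01, log2 fold change beyond 1 either way), a minimum of 800 counts, counts summed with same-symbol pseudogenes, only genes under 50% copied, and leaving out each library. Offsets by reference mRNA length and by GC content were added after seeing the data. The scripts were tested on simulated counts. The reference mRNA was the principal coding GENCODE transcript, and copies were found with BLAST 2.17.0+ among annotated transcripts. Plots were drawn with matplotlib 3.10.9.

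The genes, gene lists and tests were chosen with earlier results of these data known. Genes named were the 5 highest and lowest levels, the 5 largest fold changes each way, the 15 smallest unadjusted p-values, genes at the count minimum, paralog pairs, a fixed set (Rpsa, Rps6, stalk and 5S genes), and the 2 extremes each way per related list. Others were named after their values were seen. Libraries were grouped by title. No pair of libraries of a genotype agreed within sampling noise (chi-square per degree of freedom 1.21 to 1.3), and all were treated as replicates. This check cannot tell whether libraries shared animals. Intervals cover no error from PCR copies. A few genes are not reported here by name.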

Additional observations from a re-analysis of the deposited data

Results flagged for a closer look

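Among 76 groups of 4 libraries examined for single libraries that stood apart, 1 was found, where chance gives 3.8. Rpl7l1, the paralog of Rpl7, had 70.2 normalized counts in HAR123-KO replicate 4 while its 3 companions had 91.3 to 95.2. The gap took 0.843 of the group's range. The WT libraries had 79.6 to 105.9, so the low library lay below all 7 others.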

How the results depend on the processing

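Under every alternative run, 0 of the 78 genes passed the study's limits, and the median log2 fold change was positive wherever one was computed. Over all genes, the 38 past the limits became 73 by edgeR and 3 under the stricter limits, and 11 to 44 when a library was left out (11 without HAR123-KO replicate 4, 18 without WT replicate 3). The 3 genes with an adjusted p under 0.05 became 0 to 2 when a library was left out, with 0 without WT replicate 1 and Rps6 alone without WT replicate 3 or HAR123-KO replicate 2 or 3, and 0 among the 18 genes under 50% copied. Among those 18 genes 4 separated the genotypes, a count that is lower by construction. Over all 78 genes the 19 that separated became 13 to 28 under the other settings. The median was 0.135 with library totals as size factors (72 of 78 positive). The share ratio was 1.1 with all counts as denominator. For 37 named genes and 763 fits, 741 kept their side of the threshold, 19 lost a call, 3 gained one (Rpl30 each time) and 0 turned a called direction. Rpsa was also lost with a minimum of 10 counts in 4 libraries (adjusted p = 0.0891) and without the independent filter (0.0882). The cause of these changes was not tested.

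The replicate numbers are shared between the genotypes, and deviations of same-numbered libraries correlated at -0.015 to 0.018. Counting noise lowers such correlations, so they cannot decide whether the numbers pair the mice. With the replicate number as a block, 9 genes of the table passed the limits and 0 of the 78 had an adjusted p under 0.05, with a median log2 fold change of 0.095.

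With 4 libraries per genotype and a median standard error of 0.0769 on the log2 scale, a difference of the median size seen here cannot be resolved for most single genes. How many counts of copied genes were shared with their copies was not tested.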

Other observations

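Rps10, which was under the count minimum, had 7.9, 8.2, 7.6 and 7.5 normalized counts in the WT libraries and 1.0, 1.9, 7.0 and 4.3 in the HAR123-KO libraries. All WT libraries were above all HAR123-KO libraries, on 46 raw counts in total, and no adjusted p was given. Over all genes tested, 3.65% separated downward. A gene on the same strand overlaps 53.5% of the Rps10 reference mRNA, so its counts are not read as expression. Rpl24, with the same limit (71.5%), had 2.1 to 5.3 in WT and 2.0 to 6.7 in HAR123-KO.

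Annotated genes with identical sequence had nearly equal totals. The 5 copies made up of Rpl35a-ps2, Rpl35a-ps3, Rpl35a-ps4, Rpl35a-ps6 and Gm10243 had 379 to 412 raw counts each over the 8 libraries, and Rpl27-ps3 and Gm11518 had 571 and 573.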
